A study of Arabidopsis thaliana with 6 samples.

Results

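Cytochrome P450 genes were examined in seedlings of the *Arabidopsis thaliana* mutant *rcb-10* and of its wild type, Col-0. The rule took every gene whose symbol is CYP followed by a digit and that has a probe set (the group of oligonucleotides that reads 1 transcript) to itself in the probe table of the Affymetrix ATH1 array. It found 26 genes among the 13356 genes with a probe set of their own, each read by 1 probe set. The symbol alone was not a safe guide, since the reference annotation lists 2 of the 26 (*CYP59* and *CYP71*) as cyclophilins, which are peptidyl-prolyl isomerases whose symbols only resemble those of P450s. The remaining 24 genes are cytochrome P450s, and all counts below refer to them. They cover 6 families, of which CYP71 holds 19 genes, all of subfamily B, and CYP718, CYP51, CYP78, CYP79 and CYP84 hold 1 each. RefSeq lists 237 P450 genes with a CYP symbol in this species. The 24 genes are therefore mainly a sample of CYP71B and not of the superfamily, and the others were not analysed here.

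Cytochrome P450s are heme enzymes, most of them held in the membrane of the endoplasmic reticulum, that use molecular oxygen and electrons from a reductase to oxidise small molecules. In plants they form one of the largest enzyme families and act in the synthesis and breakdown of hormones, sterols, pigments, lignin precursors and defence compounds. Families are numbered and subfamilies lettered by protein sequence similarity, and CYP71 is a large family of plants in which many members act in specialised metabolism and many have no assigned substrate. *CYP71B15* (*PAD3*), which completes the synthesis of the phytoalexin camalexin, is the best known CYP71B gene but had no probe set of its own in the probe table.

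Both genotypes were stratified at 4 °C for 4 days, without light and on sucrose-free medium, and were then grown for 4 days in red light of 10 µmol per square metre per second. No agent was applied to either. *rcb-10* carries the T-DNA insertion SALK_075057 in the second intron of *RCB* (*REGULATOR OF CHLOROPLAST BIOGENESIS*), a gene of phytochrome signalling and chloroplast formation, and per the study the seedlings are tall and albino and hold no RCB protein. The mutant is represented by this single allele. RNA came from whole seedlings, so roots, hypocotyls and cotyledons were read together. Each genotype had 3 biological replicates, hybridised to 1 array each.

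The 2% trimmed means of the 6 arrays were all 500.04 arbitrary units, which the scaling of the deposited values had set. Log2 signals correlated at 0.945 to 0.953 within a genotype and at 0.919 to 0.928 between genotypes. The array's trp controls gave at most 43.8 units, and this value served as the background level. The methods do not say which control transcripts were added, so the absence of trp from the samples is an assumption. Between 19.5% and 21.7% of the probe sets of an array lay at or under it. No probe set was assigned to *RCB* in the probe table, so the targeted gene did not serve as a check on the genotype labels. All differences below are log2 signals of *rcb-10* minus Col-0 with the standard error (SE) from limma, a linear model fitted to all 22746 probe sets, and adjusted p-values are Benjamini-Hochberg values over all of them.

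Of the 24 P450 genes, 3 rose in *rcb-10* and 1 fell at an adjusted p under 0.05 (limma), and the other 20 did not pass. *CYP71B24*, *CYP71B23* and *CYP71B29* were higher and *CYP718* was lower. The 4 called genes are 16.7% of the 24, beside 16.9% of all probe sets, so the share of P450 genes that changed was close to that of the array. By direction, 6.76% of all probe sets were higher and 10.2% lower. With a change of at least 2-fold also required, *CYP71B24*, *CYP71B23* and *CYP718* passed, or 12.5% of the 24 beside 7.22% of all probe sets, of which 2.8% were higher and 4.41% lower. For *CYP71B24* and *CYP718* this used signals under background, and with such signals raised to the background level 0 of the 24 passed, against 1435 of all probe sets. The arrays of the genotypes did not overlap for 9 of the 24 genes, or 37.5%, beside 40.6% of all probe sets. The median log2 change of the P450 genes was 0.15 and that of all probe sets was -0.04. The change was positive in 14 genes and negative in 10 under the deposited scaling, and positive in 18 after each array was centred on its median, which moved the median of all probe sets to 0.13 and that of the P450 genes to 0.32. Without replicate 3 of Col-0 the change was positive in 10 genes and the median was -0.05, and with low signals raised to background the median was 0.02, so the P450 genes had no settled common direction.

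**Figure D1:**
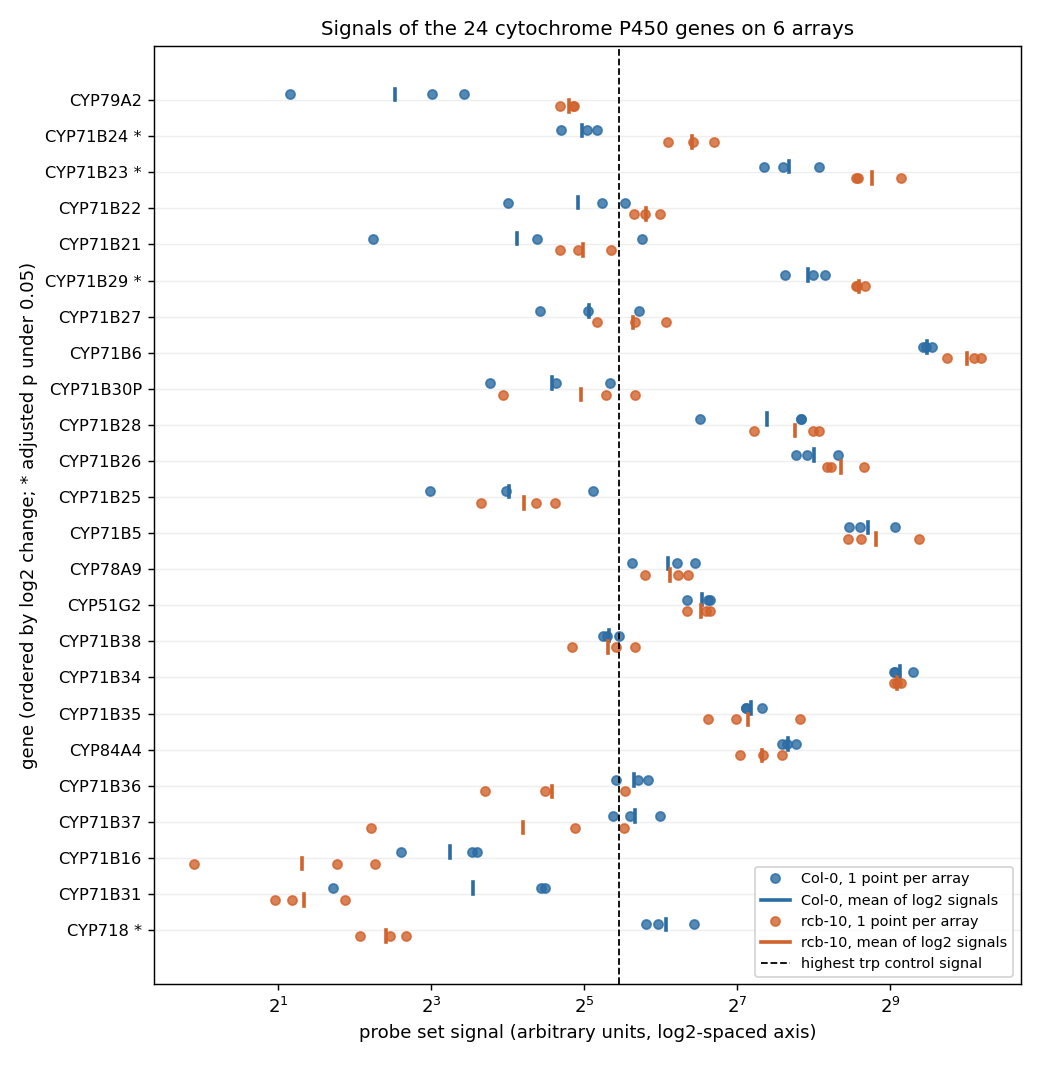
Probe set signals of the 24 cytochrome P450 genes (horizontal axis, arbitrary units, log2-spaced), 1 point per array, in 3 Col-0 (blue) and 3 *rcb-10* (orange) arrays, with vertical ticks at the mean of the log2 signals and a dashed line at the background level of 43.8. Genes are ordered by log2 change, and asterisks mark the 4 genes with an adjusted p under 0.05, of which *CYP718* has all its *rcb-10* arrays, and *CYP71B24* all its Col-0 arrays, to the left of the line.

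Low signal limited many of these genes. For 13 of the 24 at least 1 array read at or under background, and for 4 (*CYP71B16*, *CYP71B25*, *CYP71B31* and *CYP79A2*) all 6 arrays did. Fold changes are given only as lower bounds where one genotype lay at background on all its arrays, with the signals under 43.8 raised to that level, and not at all where both did. These bounds allow for background but not for the spread of the arrays. In whole seedlings, fewer cells of a type and less RNA per cell cannot be told apart.

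**Figure D2:**
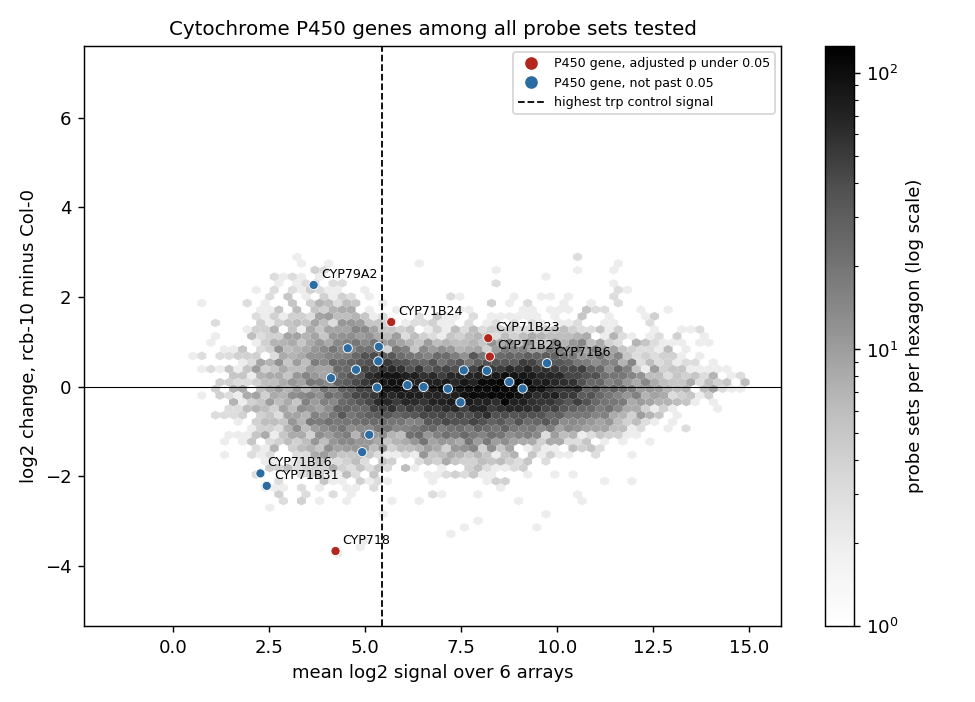
Log2 change (*rcb-10* minus Col-0, vertical axis) against the mean log2 signal over 6 arrays (horizontal axis), with all 22746 probe sets as grey hexagons shaded by number on a log scale and the 24 P450 genes as points, red where the adjusted p was under 0.05. Names mark the 8 P450 genes with an unadjusted p under 0.05, and changes left of the dashed background line, that of *CYP718* among them, rest on signals under background.

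*CYP718*, the only gene of its family among those measured, was the only one of the 24 to fall. Its signal was 62.8, 55.9 and 86.8 in the Col-0 arrays and 5.54, 4.22 and 6.39 in the *rcb-10* arrays. The Col-0 arrays were all above background and the *rcb-10* arrays all far under it, with no overlap. The fitted log2 difference was -3.67 (SE 0.24, adjusted p = 0.00422, limma), a value set by signals under background. No *rcb-10* array rose above background and Col-0 itself stood little above it. With signals under background raised to it, the mean was 1.54-fold lower in *rcb-10*, a bound that leaves out the spread of the arrays. With low signals raised to background before the fit, the adjusted p was 0.0786 and the call was lost.

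Of the 19 CYP71B genes, 3 rose, none fell and 16 did not pass (limma), so 15.8% were called beside 16.9% of all probe sets. Their median log2 change was 0.36, or 0.07 with low signals raised to background. In the RefSeq gene order, 17 of them lie in 3 tandem clusters, taken as runs with at most 10 annotated genes between members. The largest, on chromosome 3, holds 11 measured genes from *CYP71B16* to *CYP71B37*, and *CYP71B23* and *CYP71B24* lie in its middle.

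*CYP71B24* read 33.0, 35.9 and 25.9 in Col-0 and 85.9, 104 and 68.7 in *rcb-10*. Every Col-0 array was under background and every *rcb-10* array above it. The log2 difference was 1.44 (SE 0.21, adjusted p = 0.0136, limma). With low signals raised to background, the mean was 1.94-fold higher in *rcb-10*, a bound that leaves out the spread of the arrays. The call held with low signals raised to background (adjusted p = 0.0225) and after leaving out each of the 6 arrays in turn (0.0349 to 0.0484).

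*CYP71B23*, next to it with 1 annotated gene between them, read 269, 194 and 164 in Col-0 and 566, 383 and 375 in *rcb-10*. All 6 arrays were above background, and the lowest *rcb-10* array stood above the highest Col-0 array. The log2 difference was 1.08 (SE 0.26, adjusted p = 0.0437, limma), or 2.12-fold. It is the only one of the 24 on the list, drawn by the study from earlier work, of genes directly regulated by the phytochrome-interacting factors (PIFs), where it stands among the repressed targets. Its adjusted p rose to between 0.0546 and 0.114 when any 1 array was left out, so the call needed all 6 arrays. The log2 difference stayed between 0.89 and 1.28 in these refits. Calls over all probe sets also fell in them, from 3853 to between 1256 and 2224.

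The genes beside this pair did not pass. *CYP71B22*, which directly precedes *CYP71B23*, read 46.2, 37.6 and 16.1 in Col-0 and 50.3, 55.7 and 63.5 in *rcb-10*. Its arrays did not overlap, but 2 of the 3 Col-0 arrays were under background, and its log2 difference was 0.89 (SE 0.41, adjusted p = 0.199, limma). *CYP71B21*, before it, was at or under background on all arrays but 1, a Col-0 array at 54.1 units, and its log2 difference turned from 0.86 (SE 0.88) to -0.10 with low signals raised. After *CYP71B24*, *CYP71B26* read 319, 242 and 219 in Col-0 and 406, 290 and 300.4 in *rcb-10*, a log2 difference of 0.36 (SE 0.21, adjusted p = 0.304) with overlapping arrays.

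*CYP71B34*, whose signal was well above background, showed little difference. It read 529, 627 and 534 in Col-0 and 564, 528 and 544 in *rcb-10*, and the 95% confidence interval of its log2 difference ran from -0.34 to 0.26. A change of 2-fold in either direction lay outside that interval. *CYP71B35*, its direct neighbour, had a similar estimate (-0.04), but its *rcb-10* arrays spread from 98.4 to 226 and the interval ran from -0.83 to 0.74. The cluster ends with *CYP71B36* and *CYP71B37*, at -1.07 (SE 0.47) and -1.46 (SE 0.87), or -0.18 and -0.21 with low signals raised, neither past the threshold.

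The far end of the cluster rested on weak signals. *CYP71B36* read 57.2, 52.2 and 42.8 in Col-0 and 13.1, 46.6 and 22.6 in *rcb-10*, and *CYP71B37* read 64.0, 48.8 and 41.6 against 29.4, 4.64 and 45.9. Both overlapped between genotypes, with 2 of 3 *rcb-10* arrays under background. *CYP71B16*, at the other end, and *CYP71B25*, in the middle, were under background on all 6 arrays, so no fold is given for them.

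**Figure D3:**
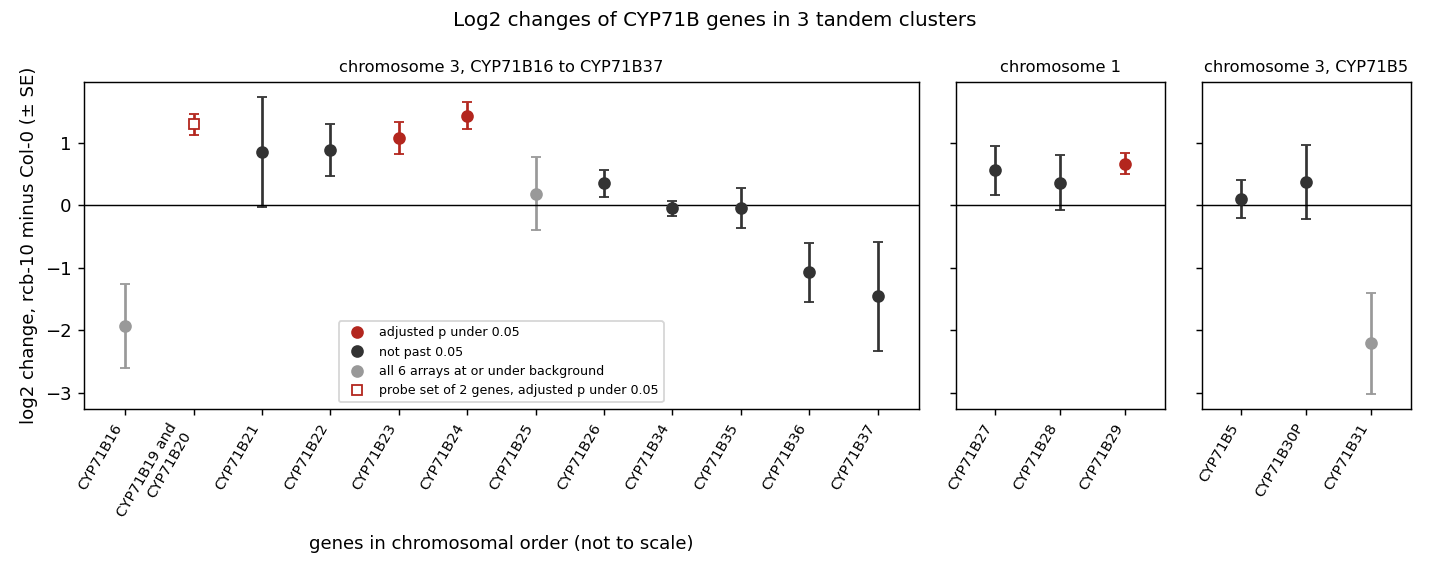
Log2 change (*rcb-10* minus Col-0) with its SE for CYP71B genes in chromosomal order in the 3 tandem clusters, with red where the adjusted p was under 0.05, grey where all 6 arrays were at or under background, and an open square for the probe set shared by *CYP71B19* and *CYP71B20*. In the largest cluster *CYP71B23* and *CYP71B24* stand at 1.08 and 1.44, while *CYP71B21*, at 0.86, and *CYP71B36* and *CYP71B37*, at -1.07 and -1.46, rest largely on signals under background and move to -0.10, -0.18 and -0.21 when these are raised.

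On chromosome 1, *CYP71B27*, *CYP71B28* and *CYP71B29* form a smaller cluster. *CYP71B29* read 283, 198 and 255 in Col-0 and 375, 378 and 408 in *rcb-10*. All *rcb-10* arrays stood above all Col-0 arrays. The log2 difference was 0.67 (SE 0.16, adjusted p = 0.0458, limma), or 1.59-fold, and it did not pass with any 1 array left out (0.0622 to 0.130).

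Its neighbours had positive differences that did not pass. *CYP71B28* read 228, 229 and 91.7 in Col-0 and 269.8, 149 and 254 in *rcb-10*, so that replicate 3 of Col-0 and replicate 2 of *rcb-10* stood apart from the others of their genotype and the groups overlapped (log2 difference 0.37, SE 0.44). *CYP71B27*, which RefSeq annotates as a transcribed pseudogene, had 3 arrays at or under background and a log2 difference of 0.57 (SE 0.40).

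The third cluster, also on chromosome 3, holds *CYP71B5*, *CYP71B30P* and *CYP71B31*, none past the threshold. *CYP71B5* read 389.6, 537 and 352 in Col-0 and 667, 392 and 350.1 in *rcb-10*. The high array of each genotype set its spread, and the log2 difference was 0.10 (SE 0.30, 95% interval -0.65 to 0.86). *CYP71B30P*, a pseudogene by its name but annotated by RefSeq as protein-coding, read above background on 1 array. *CYP71B31*, whose enzyme oxidises the monoterpene alcohol linalool in flowers, was under background on all 6 arrays, at 21.7, 22.6 and 3.31 in Col-0 and 2.28, 1.95 and 3.66 in *rcb-10*. Replicate 3 of Col-0 decided whether it passed, since its adjusted p was 0.121 with all arrays and 0.0220 without that array (0.0220 to 1 over 11 other settings). No fold is given because no array read above background.

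The last pair of CYP71B genes lies outside the clusters. *CYP71B6*, whose enzyme acts on indole-3-acetonitrile, read 749, 691 and 710 in Col-0 and 1167, 1096 and 857 in *rcb-10*. The arrays did not overlap, and the log2 difference was 0.53 (SE 0.15, adjusted p = 0.0704, limma, 95% interval 0.15 to 0.90), which did not pass the threshold. It passed after median centring (0.0369), with the dimmest 25% of probe sets left out (0.0299) and with limma's intensity trend in robust form (0.0137), and its adjusted p ranged from 0.0137 to 0.183 over 12 other settings. *CYP71B38* lay close to background in both genotypes, at 43.8, 37.9 and 39.3 in Col-0 and 50.9, 28.7 and 42.8 in *rcb-10*, and its log2 difference was -0.02 (SE 0.23).

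Of the P450 genes outside CYP71, *CYP718* fell and 4 did not pass. *CYP79A2* makes the aldoxime from phenylalanine, the entry step to benzylglucosinolate. Its signal was 10.8, 8.09 and 2.22 in Col-0 and 25.7, 29.2 and 29.1 in *rcb-10*. The arrays did not overlap, but all 6 were under background. No difference is given for it. Its adjusted p (limma) was 0.0557, with a range from 0.0262 to 1 over 11 other settings, the last with low signals raised to background.

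*CYP84A4*, which acts in the synthesis of arabidopyrones from phenylpropanoid precursors, read 201, 193 and 218 in Col-0 and 162, 131 and 192 in *rcb-10*. The highest *rcb-10* array was just under the lowest Col-0 array. The log2 difference of -0.35 (SE 0.17, adjusted p = 0.220, limma) did not pass, with a 95% interval from -0.77 to 0.07.

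*CYP51G2* and *CYP78A9* showed no detectable difference. *CYP51G2*, annotated as a pseudogene and related to the sterol 14-demethylase gene *CYP51G1*, read 98.0, 81.1 and 100.4 in Col-0 and 96.7, 99.9 and 81.5 in *rcb-10*. The arrays overlapped throughout, and the 95% interval of its log2 difference was -0.37 to 0.36. *CYP78A9*, of a subfamily that promotes the growth of organs, fruits and seeds, read 87.4, 74.1 and 49.3 in Col-0 and 82.5, 74.6 and 55.8 in *rcb-10*, with an interval from -0.63 to 0.70. For both genes these intervals leave out a change of 2-fold.

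Most P450 genes of known pathways were not examined. A gene is called measured here only where the probe table assigns a probe set to it alone. P450 genes listed by CYP symbol were looked up by that symbol alone. Those that the probe table holds under another name thus count as not measured, apart from 20 looked up by locus. Of the 22746 probe sets tested, 8730 had no gene in that table, so the array may read genes that are not called measured. Of the P450 genes in the lists for aldoxime, glucosinolate and camalexin synthesis (17 genes), phenylpropanoids and flavonoids (7), sterols, carotenoids and triterpenoids (15) and organ growth (6), 1 each was measured, and these are the 4 genes just described. By this lookup, no gene was measured of the lists of fatty acid hydroxylases (21 genes), hormone synthesis and breakdown (26), P450s under other symbols (20) and redox partners (4).

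Other genes of the pathways served by P450s gave the following. Of 34 further glucosinolate genes, 7 were measured, of which none rose, 2 fell and 5 did not pass, beside the 10.2% of all probe sets that fell, and the median log2 change was -0.54. *GSTU20*, a glutathione transferase, read 855, 539 and 434 in Col-0 and 104, 132 and 102 in *rcb-10*. The groups were far apart, and the log2 difference was -2.39 (SE 0.28, adjusted p = 0.00869, limma), or 5.23-fold lower in *rcb-10*. *UGT74B1*, the glucosyltransferase of glucosinolate core synthesis, read 619, 494 and 541 against 399, 343 and 352, a log2 difference of -0.59 (SE 0.14, adjusted p = 0.0400, limma) with no overlap. That call was lost when any 1 array was left out (0.0654 to 0.124), and the call of *GSTU20* was kept (0.0221 to 0.0394). The glucosinolate transporter genes *GTR1* and *GTR2* were at -0.59 (adjusted p = 0.105) and 0.00, neither past the threshold. Of 17 further phenylpropanoid genes, 2 were measured and neither passed. *HCT*, of the lignin branch, was at -0.65 (SE 0.17, adjusted p = 0.0563). *DFR*, of anthocyanin synthesis, was under background on all Col-0 arrays and above it on all *rcb-10* arrays (adjusted p = 0.117, limma). With low signals raised to background, its mean was 1.44-fold higher in *rcb-10*, and it did not pass either (adjusted p = 0.112, limma). The 1 measured gene each of the carotenoid list (*LYC*, lycopene cyclase, at -0.14) and of the triterpene cluster list (*AT5G47980*, at -0.87) did not pass either. None of the further genes listed for cutin, suberin and wax, for jasmonate, or for gibberellin and brassinosteroid was measured.

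Markers of the seedling's organs were checked beside these values. Of 9 root markers, 3 were measured, and their summed signal ranged from 18597 to 23467 in Col-0 and from 18763 to 20145 in *rcb-10*. The sum was mostly *PYK10*, a root beta-glucosidase, at -0.09. *AT5G66815* was at -1.41 (SE 1.03, adjusted p = 0.396, limma), or -0.03 with low signals raised. *EXPA7*, an expansin of root hairs, fell by 1.06 on the log2 scale (SE 0.23, adjusted p = 0.0328, limma), from 180.4 ± 39.7 to 86.0 ± 15.3 (SD, n = 3 each), and passed in 1 of 6 refits with 1 array left out (0.0422 to 0.0914). Of 7 green tissue markers, 2 (*STOMAGEN* and *FMA*) were measured and neither passed, with sums from 1007 to 1768 in Col-0 and from 1055 to 1961 in *rcb-10*. The 1 measured of 5 seed storage markers, *PAP85*, was at 0.93 (SE 0.24, adjusted p = 0.0517), and none of 4 vascular markers was measured. Among the measured markers only *EXPA7* passed the threshold with all arrays kept. *PYK10* (adjusted p = 0.677, limma), *STOMAGEN* (0.896) and *FMA* (0.382) showed no detectable difference. The part of organ composition in the P450 changes was not tested.

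Both cyclophilin genes that share the CYP symbol were unlike the called genes. *CYP59* read 143, 105 and 171 in Col-0 and 99.0, 152 and 131 in *rcb-10*, and *CYP71* read 452, 343 and 355 against 334, 325 and 357. Both overlapped between genotypes, with 95% intervals from -0.75 to 0.50 and from -0.53 to 0.20.

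The 4 calls were not equally firm. *CYP71B24* and *CYP718* passed in all 6 refits with 1 array left out, and *CYP71B23* and *CYP71B29* in none. With the methods' t-test on the same values, *CYP718* (adjusted p = 0.0128) and *CYP71B24* (0.0337) passed, and *CYP71B23* (0.0884) and *CYP71B29* (0.0697) did not. With low signals raised to background, *CYP71B24* and *CYP71B29* passed, and *CYP71B23* (0.0551) and *CYP718* (0.0786) did not. Over these and the scaling, filter and variance settings, adjusted p ranged from 0.00199 to 0.0484 for *CYP71B24*, which passed in 12 of 12, from 0.00114 to 0.0786 for *CYP718*, from 0.00351 to 0.114 for *CYP71B23* and from 0.00890 to 0.130 for *CYP71B29*. The ranges over settings leave out the fit with the replicate number as a block. In that fit none of the 4 passed, and the adjusted p of *CYP71B24* was 0.0539 (limma).

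**Figure D4:**
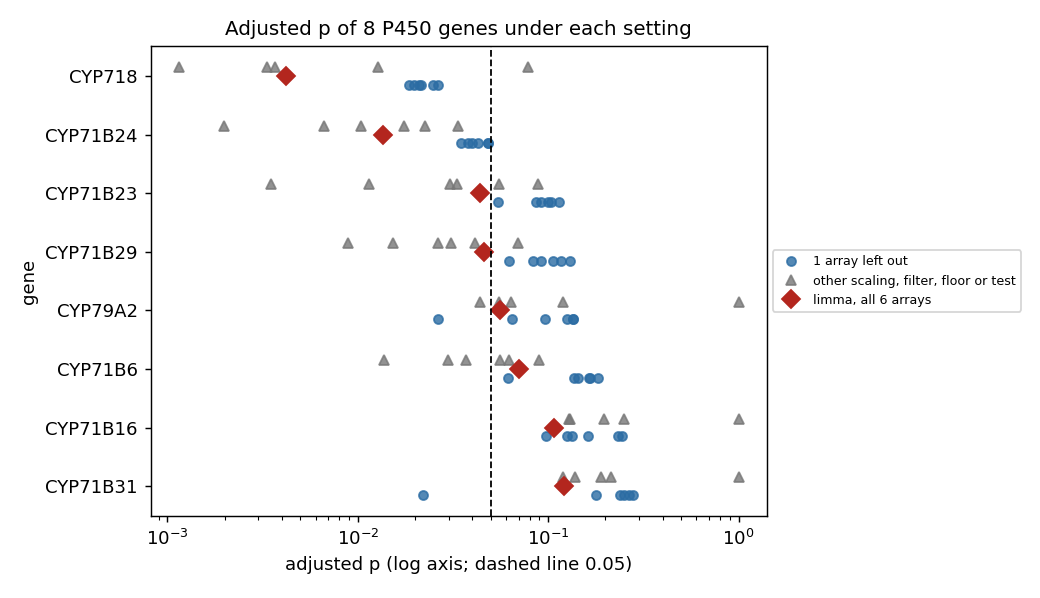
Adjusted p (log axis) of the 8 P450 genes with an unadjusted p under 0.05 from limma with all 6 arrays (red diamonds), with 1 array left out (blue circles) and with another scaling, filter, floor or test (grey triangles), with a dashed line at 0.05. All marks of *CYP71B24* lie left of the line, while the blue circles of *CYP71B23* and *CYP71B29* lie right of it. The fit with the replicate number as a block, in which no gene passed, is not drawn.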

How the data were processed

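RNA of whole seedlings (3 Col-0, 3 *rcb-10*) was labelled with the MessageAmp Premier kit and hybridised to ATH1 arrays. The study's methods give the GeneSpring GX software and RMA normalisation. The deposited values, however, were linear intensities that the authors had scaled to a common trimmed mean, so log2 was taken first, although log2 values had been assumed when the tests were set. Control probe sets (64 of 22810) were left out. The genotypes were compared with limma 3.58.1 (R 4.3.3), with Benjamini-Hochberg adjustment over 22746 probe sets and no filter. Probe sets were named from the platform's probe table, updated through RefSeq symbols, which also gave gene order. Of the probe sets, 8730 had no gene in that table and 503 had several. The fit was also run on simulated data with 200 changed probe sets, independent noise and no background floor. That run does not check calls near background. The genes, lists and alternatives were chosen with earlier results of these data known. Genes named are those past 2-fold, then the called gene of largest change of other families, the 5 highest mean signals, the 2 lowest p of each role list and members of the same tandem clusters, with *CYP71B38* added after its values were seen so that every gene is accounted for. The replicates were grown independently. With 3 against 3 arrays, an exact permutation test of a single gene cannot go below p = 0.1, and their number limits the precision.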

Additional observations from a re-analysis of the deposited data

How the results depend on the processing

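Counts for the P450 genes below are of 24 genes at an adjusted p under 0.05 in limma, unless stated. They were the same after quantile normalisation and nearly so with a variance trend (5 genes). Of all probe sets, 16.1% were called after quantile normalisation and 26.2% with the variance trend. With median centring, 5 rose and 1 fell, and over all probe sets 2553 rose and 1493 fell (36.9% lower, beside 60.1% as deposited, where 1538 rose and 2315 fell). The calls after median centring were 17.8% of all probe sets. With the dimmest 25% of probe sets left out, 12 P450 genes were left, of which 4 rose and 0 fell, since *CYP718* was not tested (4 at an unadjusted p under 0.05). Of the 17059 probe sets kept, 5635 or 33.0% were called, so 4 of 12 was close to that share. A variance trend gave 2408 probe sets higher and 3543 lower. The methods' t-test gave 1 gene higher, also past 2-fold, and 1 lower, beside 14.0% of all probe sets called. With low signals raised, 2 rose, 0 fell and 0 passed 2-fold in either direction (6 at an unadjusted p under 0.05). Of all probe sets, 20.8% were called in that setting. With the replicate number as a block, 0 P450 genes and 0 probe sets passed in either direction, with or without the 2-fold limit, while 8 P450 genes had an unadjusted p under 0.05. Over all probe sets, deviations of samples of the same number were almost uncorrelated (0.03, -0.02 and 0.02). Such correlations cannot show whether samples of the same number share an effect on some genes, so a pairing was not settled. Leaving out 1 array gave 1 to 2 P450 genes higher and 1 to 2 lower, also past 2-fold, and 474 to 967 probe sets higher and 782 to 1257 lower. No called gene changed direction. The cause of these shifts was not tested. Signals at background limit 13 of the 24 genes to bounds or weak estimates.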

Other observations

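A probe set shared by *CYP71B19* and *CYP71B20*, which lie between *CYP71B16* and *CYP71B21* in the largest tandem cluster, was outside the rule because it reads both genes, and was looked at after the values of the cluster had been seen. It read 405, 594 and 521 in Col-0 and 1223, 1271 and 1203 in *rcb-10*. All arrays were well above background and the genotypes did not overlap. The log2 difference was 1.30 (SE 0.17, adjusted p = 0.0106, limma), or 2.46-fold higher in *rcb-10*, and its adjusted p stayed between 0.0257 and 0.0441 with 1 array left out. Which of the genes carried the change cannot be read from a shared probe set.

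Probe sets of 11 genes flanking the clusters, none of them a P450, were read for comparison. None rose and 2 fell, beside 6.76% of all probe sets that rose and 10.2% that fell. *AT1G13030*, beside the chromosome 1 cluster, fell by 0.68 on the log2 scale (SE 0.17, adjusted p = 0.0447, limma), but passed in 1 of 6 refits with 1 array left out (0.0429 to 0.121). *AT1G13130*, beside the same cluster, was at -2.52 (SE 0.90, adjusted p = 0.114, limma), with every *rcb-10* array under background. With low signals raised it was at -0.34 and passed (adjusted p = 0.00775, limma), its *rcb-10* arrays then all at the background level. *AT1G13040*, also there, was under background on all 6 arrays. *AT3G26370*, beside the largest cluster, read 672, 682 and 658 in Col-0 and 408, 433 and 468 in *rcb-10* and fell by 0.62 (adjusted p = 0.0200, limma), and passed in 0 of 6 refits (0.0509 to 0.0725). The other genes beside the largest cluster had small values that did not pass, with *AT3G26360* at 0.24, *AT3G26350* at 0.20 and *AT3G26140* at -0.06.

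A probe set shared by *CYP79C2* and *AT1G58265* was at or under background on all 6 arrays.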
